A study of Mus musculus with 10 samples.

Results

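Transcripts of natural killer (NK) cells activated with the cytokine IL-15 were compared with those of resting NK cells, on 6 of the 10 Affymetrix MOE430_2 arrays of the series. NK cells are lymphocytes of the innate immune system that kill infected or transformed cells and release cytokines. Every NK sample came from spleens of C57Bl/6 mice and was sorted as NK1.1+CD3- cells. In the 3 resting samples the cells were lysed directly after the sort. In the other 3 samples they were cultured for 24 h with 100 ng/mL IL-15 before lysis. All 6 were labelled by a 2-cycle amplification, and the series' design text calls them 3 biological replicates of each condition. The 4 other arrays hold bulk resting splenocytes, labelled by a 1-cycle amplification. They stayed out of the tests and served as a scale for markers of other cells. They also entered the signal floor and the choice of 1 probe set per gene, both described below. A gene called brighter in splenocytes had a higher mean signal there than in resting NK cells, a comparison across the 1-cycle and 2-cycle labelling. A culture without the cytokine is not among the samples, so an effect of IL-15 and an effect of 24 h of culture cannot be told apart in any value below.

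IL-15 acts on NK cells through the beta chain of the IL-2 receptor (Il2rb) and the common gamma chain, usually while it is held by the alpha chain (Il15ra) on a neighbouring cell. The receptor activates the kinases JAK1 and JAK3 and the transcription factor STAT5, and in parallel the PI3K and MAP kinase pathways. NK cells need this cytokine to survive, and high doses push resting NK cells into the cell cycle and raise their killing capacity.

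Signals below a floor of 179.8 units (7.49 on the log2 scale) were raised to it, and every value given below is a log2 signal or a difference of log2 signals. Signals are per probe set and are compared between samples, never between genes. Of 18193 genes on the array, 11433 lay above the floor on at least 3 of the 6 arrays and were tested with limma. At a Benjamini-Hochberg adjusted p under 0.05 a gene is said to have risen or fallen. In all 3003 genes (26.3%) passed, of which 1619 (14.2% of those tested) were higher and 1384 (12.1%) lower in IL-15 NK cells. Calls of at least 2-fold made up 9.59% in the higher and 7.38% in the lower direction. The groups did not overlap for 20.5% of genes in the higher and 21.6% in the lower direction. Without IL-15 array 3 the call count was 1906 in all and 799 in the lower direction, and without IL-15 array 1 the lower count was 823. These shares are the background for each count below. Folds are ratios of geometric means, that is, of means of log2 signals after the floor was set. A fold given as "at least" is a bound on that scale and belongs to a gene that lay at the floor on 1 or more arrays of its dimmer group. Socs1 and Fosb lay at the floor on all 3 arrays of 1 group. They met the filter only through the other group, and their SE and p-values take no spread from the group at the floor. Each gene was read from its brightest probe set. Of 190 called genes chosen for naming that have other tested probe sets, all of these gave the same call for 75, and for 1 gene another probe set gave the opposite call. No other tested probe set passed in the same direction for Abca1, Atic, Capg, Dbp, Fads1, Fignl1, Gab2, Lmna, Nfkbie, Pim1, Slc1a5, Smad3, Spry2, Vsir and Zfp36l2. The lists of cell division, ribosome assembly and sterol synthesis genes hold 272 of the higher calls, 16.8% of them, and the account below is mainly about the others. Uhrf1, described with the chromatin genes below, is also a member of those lists.

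**Figure D1:**
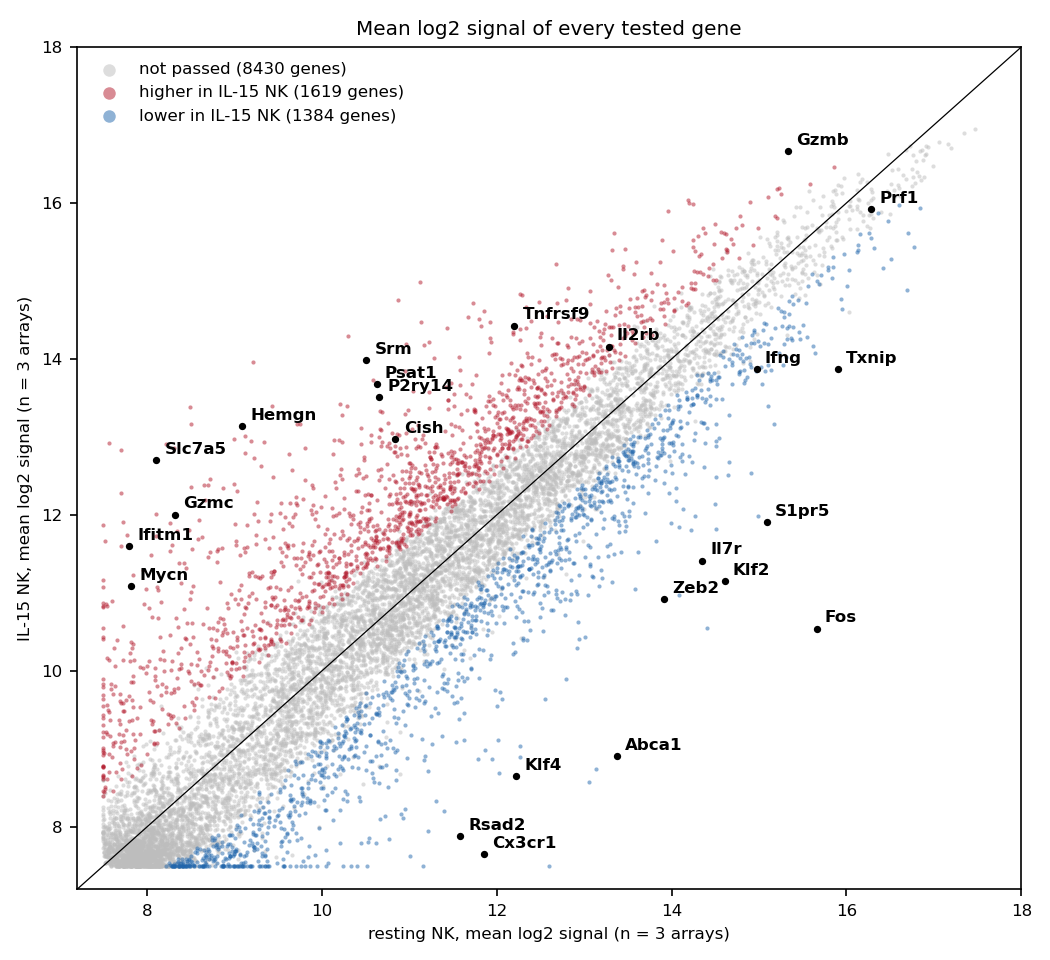
Mean log2 signal of every tested gene in resting NK cells (horizontal axis) and IL-15 NK cells (vertical axis), n = 3 arrays each. Red points were called higher (1619), blue points lower (1384) and grey points neither; black points are named examples, and the line marks equal signal.

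The arrays differed in 2 ways that moved with the groups. Probe sets above the floor made up 57.8% to 61.7% of resting and 51.1% to 56.5% of IL-15 NK arrays, and the 3-prime to 5-prime signal ratio of the Gapdh control was 5.88 to 9.54 in resting and 2.90 to 3.81 in IL-15 NK cells. Transcripts of other spleen cells were also higher in resting samples. The 15 B cell markers on the array had median signals of 11.3%, 10.8% and 1.63% of the splenocyte mean on resting arrays 1, 2 and 3, against 0.766%, 0.627% and 1.05% on the IL-15 arrays. On resting array 3, 8 of the 15 B cell markers lay above the floor, against all 15 on the other resting arrays and 5 to 7 on the IL-15 arrays. Their summed signals were 54575, 71623 and 14210 on the resting arrays and 5773 to 7580 on the IL-15 arrays, and Cd79a and Ms4a1 lay below the floor on resting array 3 and on every IL-15 array. For the 15 macrophage and monocyte markers the range was 4.50% to 7.36% in resting and 0.737% to 1.80% in IL-15 NK cells, with 9 to 10 and 3 to 4 of the markers above the floor. Their summed signals overlapped, at 24872 to 61337 in resting and 27358 to 33590 in IL-15 NK cells. In bulk samples fewer cells of a type and less RNA per cell cannot be told apart. The 15 NK cell markers were above the floor on every NK array, at medians of 701% to 895% of splenocytes in resting and 595% to 756% in IL-15 NK cells. Of the 1384 genes called lower, 458 had a higher mean signal in splenocytes and 926 did not. The part of the other cells in a lower call was not tested. The difference from resting array 3 alone is given where a lower gene was brighter in splenocytes. Resting array 3 was the lowest resting array in B cell markers, and also in T cell and dendritic cell markers. T cell markers had a median of 2.71% of the splenocyte mean there, against 13.6% and 12.0% on resting arrays 1 and 2. Dendritic cell markers had a summed signal of 28254, against 47386 and 50609. Its summed signals for macrophage and monocyte markers (61337) and for neutrophil markers (4422) were the highest of the resting arrays. A difference from that array therefore cannot set apart transcripts of those cells.

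**Figure D2:**
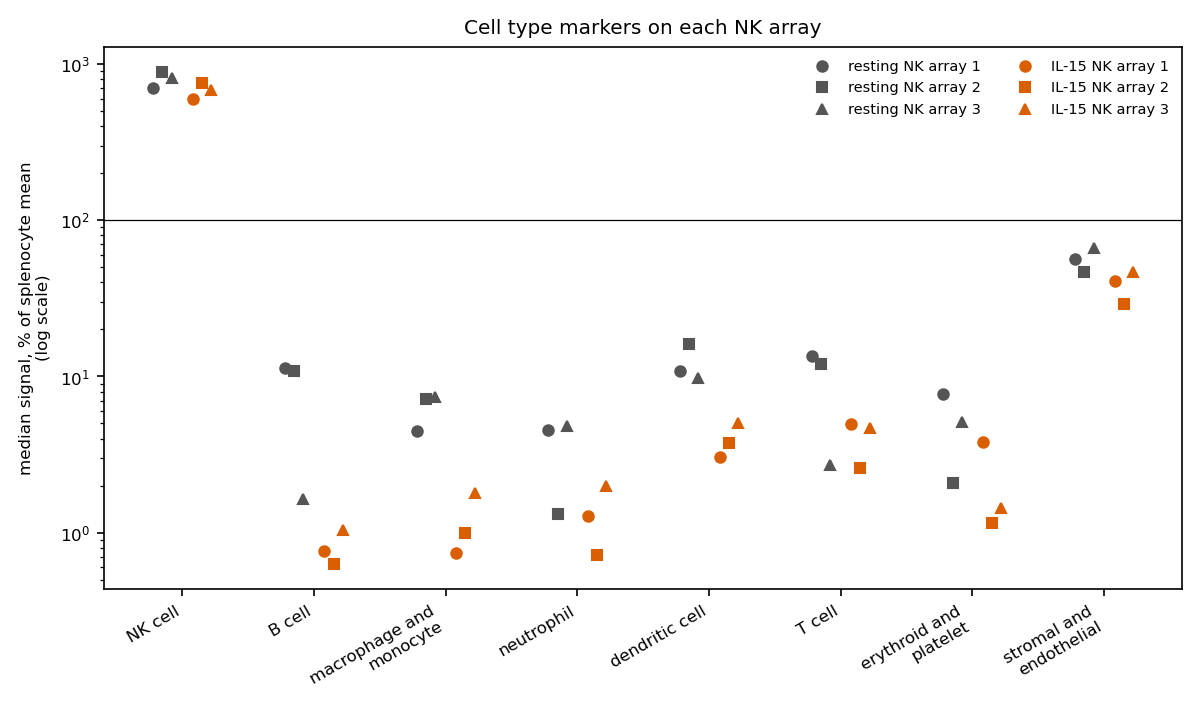
Median signal of 8 lists of cell type markers on each NK array, as a percentage of the splenocyte mean (log scale). NK cell markers lie at 595% or more on all 6 arrays, while B cell markers lie at 11.3% and 10.8% on resting arrays 1 and 2 and at 0.627% to 1.63% on the other four.

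The beta chain of the IL-15 receptor rose, and the common gamma chain was not analysed here. Il2rb, the beta chain shared by IL-2 and IL-15, had log2 signals of 13.64, 13.16 and 13.03 in resting NK cells and 13.98, 14.26 and 14.23 in IL-15 NK cells. All 3 IL-15 values lay above every resting value, and Il2rb rose 1.84-fold (log2 difference 0.88 ± 0.20 SE, limma adjusted p = 0.009). Il2ra and Il15ra, the alpha chains of the IL-2 and IL-15 receptors, gave log2 differences of 0.62 ± 0.42 SE and 0.20 ± 0.29 SE that did not pass (limma adjusted p = 0.31 and 0.65). Transcripts of the cytokine moved the other way, since Il15 had log2 signals of 9.44, 9.04 and 10.11 in resting NK cells and 7.71, 7.61 and 8.09 in IL-15 NK cells, and it fell 3.31-fold (log2 difference -1.73 ± 0.33 SE, limma adjusted p = 0.0039). Tyk2, a JAK family kinase in a list of receptor and signalling genes, fell 2.43-fold (limma adjusted p = 0.00076). In the same list Gab2, an adaptor that links cytokine receptors to PI3K, fell 2.84-fold (limma adjusted p = 0.0014). The tyrosine kinase gene Syk, also listed, fell 2.82-fold (limma adjusted p = 0.00038). Syk was brighter in splenocytes, and its log2 difference from resting array 3 alone was -1.47. Of 18 tested genes of that list of receptor and signalling genes, 1 rose and 6 fell.

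Targets and brakes of the JAK-STAT pathway split. Cish, an inhibitor that STAT5 induces and that limits IL-15 signalling in NK cells, had log2 signals of 10.85, 10.62 and 11.06 in resting NK cells and 13.28, 13.18 and 12.45 in IL-15 NK cells. The groups did not overlap, and Cish rose 4.38-fold (log2 difference 2.13 ± 0.25 SE, limma adjusted p = 0.00028). Pim2, a survival kinase and another known STAT5 target, had log2 signals of 11.74, 11.16 and 11.36 in resting NK cells and 13.57, 13.34 and 14.03 in IL-15 NK cells, and it rose 4.67-fold (log2 difference 2.22 ± 0.23 SE, limma adjusted p = 0.00014). Socs1, which binds and blocks JAK kinases, was at the floor on all 3 arrays in resting NK cells and 8.98, 9.69 and 9.24 in IL-15 NK cells, and it rose at least 3.51-fold (log2 difference at least 1.81 ± 0.28 SE, limma adjusted p = 0.0012). Pim1, a close relative of Pim2, went the other way from 14.79, 14.88 and 14.97 in resting NK cells to 14.08, 13.70 and 14.29 in IL-15 NK cells. It fell 1.82-fold (log2 difference -0.86 ± 0.19 SE, limma adjusted p = 0.0078), but averaged over its probe sets the difference was no longer past the threshold (limma adjusted p = 0.051). Of 19 tested genes of this list 4 rose and 2 fell, and the lower count became 1 without resting array 1, IL-15 array 1 or IL-15 array 3 and 4 without resting array 3.

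STAT5 recognises the GAS motif, spelled TTCNNNGAA and searched on both strands. Of all 32851 mouse promoters in the RefSeq table (250 bases before to 50 after a start site, GRCm38.p6), 8.3% hold it. The shares were 7.08% for promoters of genes that rose and 6.93% for those of genes that fell, beside 6.96% for tested genes, so these letters were about as frequent in each set. Promoters of 2 genes that rose and of 1 that fell (Gzmb and Il7r are described with the effector genes and receptors below) are shown 5′ to 3′ on the strand of the gene, with each match in capitals. The first is Cish at chr9:107296409-107296708 (plus strand), with 2 matches from base 0 and base 11 after the start. Gzmb lies at chr14:56262285-56262584 (minus strand) and has 1 match at base 37. Il7r lies at chr15:9529827-9530126 (minus strand) and has 1 match 142 bases before the start. None of these matches overlaps another motif searched.
Cish: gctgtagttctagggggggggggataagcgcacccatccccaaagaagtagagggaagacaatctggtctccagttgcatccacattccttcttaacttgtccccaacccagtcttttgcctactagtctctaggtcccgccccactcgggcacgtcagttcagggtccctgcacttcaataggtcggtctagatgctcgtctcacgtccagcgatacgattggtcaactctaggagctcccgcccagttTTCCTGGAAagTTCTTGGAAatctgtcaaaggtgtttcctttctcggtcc
Gzmb: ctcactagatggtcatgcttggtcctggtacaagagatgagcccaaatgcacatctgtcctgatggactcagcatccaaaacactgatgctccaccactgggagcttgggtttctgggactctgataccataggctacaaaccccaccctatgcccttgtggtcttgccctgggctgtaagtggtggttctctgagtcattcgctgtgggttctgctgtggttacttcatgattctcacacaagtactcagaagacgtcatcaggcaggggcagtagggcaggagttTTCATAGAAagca
Il7r: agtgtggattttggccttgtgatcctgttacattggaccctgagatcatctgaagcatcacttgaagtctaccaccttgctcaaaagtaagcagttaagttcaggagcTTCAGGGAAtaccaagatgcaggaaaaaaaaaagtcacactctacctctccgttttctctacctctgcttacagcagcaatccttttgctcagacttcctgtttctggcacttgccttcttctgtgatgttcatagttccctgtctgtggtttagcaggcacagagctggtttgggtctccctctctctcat

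Several genes from a list of brakes on PI3K and on the growth kinase mTOR fell. Inpp4a, a lipid phosphatase that degrades a PI3K product, had log2 signals of 11.05, 11.22 and 11.83 in resting NK cells and 9.17, 9.35 and 8.95 in IL-15 NK cells, and it fell 4.63-fold (log2 difference -2.21 ± 0.29 SE, limma adjusted p = 0.00045). Txnip, an arrestin that restrains glucose uptake, had log2 signals of 15.87, 16.12 and 15.72 in resting NK cells and 13.36, 13.94 and 14.31 in IL-15 NK cells. It fell 4.09-fold (log2 difference -2.03 ± 0.24 SE, limma adjusted p = 0.0003), and no IL-15 value reached a resting one. Pik3ip1, a membrane inhibitor of PI3K, fell 2.29-fold (limma adjusted p = 0.0031; log2 difference -1.10 from resting array 3 alone; brighter in splenocytes). Of 22 tested members of this list of PI3K and mTOR brakes 7 fell and 0 rose by limma (0 higher at an unadjusted p under 0.05). The median log2 difference of the list was -0.34, beside -0.09 over all tested genes.

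Feedback inhibitors of NF-kappaB, the transcription factor of inflammatory signalling, were among the genes that fell. Nfkbia, which holds NF-kappaB in the cytoplasm, had log2 signals of 16.75, 16.83 and 16.76 in resting NK cells and 15.58, 15.27 and 15.46 in IL-15 NK cells, and the values within each group were close together. It fell 2.53-fold (log2 difference -1.34 ± 0.17 SE, limma adjusted p = 0.00042), and all 4 of its other tested probe sets gave the same call. Its relative Nfkbie fell 3.63-fold (log2 difference -1.86 ± 0.22 SE, limma adjusted p = 0.0003), with a log2 difference of -1.91 from resting array 3 alone. Tnfaip3 (A20), a ubiquitin editor that ends NF-kappaB signalling, had log2 signals of 15.14, 15.11 and 13.27 in resting NK cells and 11.94, 11.58 and 11.95 in IL-15 NK cells. Resting array 3 was the lowest of its group by far, though still above every IL-15 array, and the log2 difference was -2.68 over all arrays and -1.44 from resting array 3 alone (limma adjusted p = 0.0014 over all arrays). Of 20 tested genes 8 fell, 3 of them not brighter in splenocytes, and 0 rose by limma (1 higher at an unadjusted p under 0.05); the lower count was 4 without IL-15 array 1 or IL-15 array 3. In the MAP kinase pathway Spry2, a Sprouty protein that blocks receptor signalling to RAS, fell from 13.54, 13.66 and 13.24 in resting NK cells to 11.89, 11.94 and 11.74 in IL-15 NK cells. The difference for Spry2 was -1.62 ± 0.18 SE (limma adjusted p = 0.00021). Of 21 tested MAP kinase phosphatases and Sprouty-type brakes 3 rose and 5 fell, and the lower count was 2 without resting array 1, IL-15 array 1 or IL-15 array 3 and 3 without IL-15 array 2.

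Early response genes, which cells switch on within minutes of a stimulus, moved in both directions. Fos had log2 signals of 15.98, 16.25 and 14.74 in resting NK cells and 10.69, 10.73 and 10.20 in IL-15 NK cells, and it fell 34.7-fold (log2 difference -5.12 ± 0.35 SE, limma adjusted p = 1.5e-05). Fosb lay at 11.88, 10.49 and 9.17 in resting NK cells and at the floor on all 3 arrays in IL-15 NK cells, and it fell at least 8.12-fold (log2 difference -3.02 or lower, ± 0.55 SE, limma adjusted p = 0.003). Resting array 3 again held the lowest resting value of both, with log2 differences of -4.20 for Fos and -1.68 for Fosb from that array alone. Other early genes rose. Maff, a small MAF transcription factor, had log2 signals of 8.05 and 8.44 on a pair of arrays and at the floor on the other in resting NK cells and 10.83, 9.85 and 9.52 in IL-15 NK cells, and it rose at least 4.21-fold (log2 difference at least 2.07 ± 0.39 SE, limma adjusted p = 0.0037), and Ier3, an early gene with a role in survival, rose 3.75-fold (log2 difference 1.91 ± 0.37 SE, limma adjusted p = 0.0042). Of 23 tested early genes 8 fell and 5 rose, and the lower count was 5 without resting array 1 or IL-15 array 1.

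Among transcription factors, those linked to quiescence gave the list with the highest share of lower calls of the 52 pathway lists. Quiescence factors keep lymphocytes small, circulating and out of the cell cycle. Klf2, which drives the genes for exit into blood and restrains division, had log2 signals of 14.89, 14.83 and 14.10 in resting NK cells and 10.63, 11.45 and 11.37 in IL-15 NK cells. It fell 11-fold (log2 difference -3.45 ± 0.28 SE, limma adjusted p = 3.4e-05), so the lowest resting array was still more than 2 log2 units above the highest IL-15 array. Klf3, a repressor of the same family, was 14.76, 14.86 and 15.33 in resting NK cells and 11.85, 11.81 and 12.30 in IL-15 NK cells, and it fell 8-fold (log2 difference -3.00 ± 0.21 SE, limma adjusted p = 1.7e-05). Klf4 fell 11.9-fold (log2 difference -3.58 ± 0.43 SE, limma adjusted p = 0.00031) and Klf12 fell 3.71-fold (log2 difference -1.89 ± 0.32 SE, limma adjusted p = 0.0019). Tob1, an antiproliferative protein that recruits the mRNA deadenylation machinery, had log2 signals of 12.17, 12.49 and 12.25 in resting NK cells and 10.43, 10.43 and 10.40 in IL-15 NK cells. It fell 3.68-fold (log2 difference -1.88 ± 0.20 SE, limma adjusted p = 0.00016), and no IL-15 value reached a resting one. Of 23 tested members of the quiescence list 20 fell, 13 of them not brighter in splenocytes. By limma 0 rose at either the adjusted or the unadjusted threshold. The median log2 difference of the list was -1.23, and 14 to 17 members were called lower when any 1 array was left out. Outside that list Tsc22d3 (GILZ), a gene that glucocorticoids induce, fell 2.58-fold (log2 difference -1.37 ± 0.23 SE, limma adjusted p = 0.0018). It was brighter in splenocytes, with a log2 difference of -1.37 from resting array 3 alone. Of 15 tested glucocorticoid-responsive genes 9 fell, 5 of them not brighter in splenocytes, and 2 rose. That lower count was 4 without resting array 1 or IL-15 array 3.

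Members of the MYC network moved in opposite directions. MYC proteins drive growth by binding E-boxes with the partner MAX, and the MXD proteins compete for MAX and repress the same sites. Mycn had log2 signals of 8.27 and 7.68 on a pair of arrays and at the floor on the other in resting NK cells and 11.34, 10.76 and 11.15 in IL-15 NK cells, and it rose at least 9.66-fold (log2 difference at least 3.27 ± 0.31 SE, limma adjusted p = 8e-05). Myc had log2 signals of 10.92, 10.49 and 10.19 in resting NK cells and 11.99, 12.00 and 11.84 in IL-15 NK cells, and it rose 2.66-fold (log2 difference 1.41 ± 0.24 SE, limma adjusted p = 0.002). Mxd1 fell from 12.48, 12.85 and 13.47 in resting NK cells to 11.47, 10.93 and 11.29 in IL-15 NK cells, a difference of -1.70 ± 0.27 SE (limma adjusted p = 0.0014). The groups did not overlap for any of these 3 genes. Of 13 tested members of the network 2 rose and 4 fell.

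Of 25 tested transcription factors of the NK and innate lymphoid lineage 11 fell, 7 of them not brighter in splenocytes, and 0 rose by limma (0 higher at an unadjusted p under 0.05). Zeb2, a repressor that completes the maturation of NK cells, had log2 signals of 13.80, 14.39 and 13.54 in resting NK cells and 10.41, 11.12 and 11.22 in IL-15 NK cells, and it fell 7.96-fold (log2 difference -2.99 ± 0.28 SE, limma adjusted p = 7.2e-05). All 4 of its other tested probe sets gave the same call. Tbx21 (T-bet), needed for the same maturation step, had log2 signals of 14.22, 14.38 and 14.51 in resting NK cells and 12.90, 13.26 and 13.38 in IL-15 NK cells, and it fell 2.28-fold (log2 difference -1.19 ± 0.18 SE, limma adjusted p = 0.0013). Tox2, an HMG-box factor, fell 3.67-fold (limma adjusted p = 0.0082). Dbp, an output factor of the circadian clock, fell 2.98-fold (limma adjusted p = 0.0059) in a list of 15 clock genes of which 4 fell. Smad3 and Smad4, which carry TGF-beta signals that restrain NK cells, fell 2.46-fold and 2.18-fold (limma adjusted p = 0.00043 and 0.00077), while Pmepa1, which sequesters SMAD proteins, had log2 signals of 8.32 on 1 array and at the floor on the other two in resting NK cells and 11.88, 12.05 and 11.28 in IL-15 NK cells, and it rose at least 15.7-fold (log2 difference at least 3.97 ± 0.34 SE, limma adjusted p = 4.6e-05). Of 23 tested genes of the TGF-beta pathway list, which does not hold Pmepa1, 1 rose and 4 fell. The gene that rose was Tgfb1 (log2 difference 1.66, limma adjusted p = 0.01). With its probe sets averaged Tgfb1 did not pass (limma adjusted p = 0.14).

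**Figure D3:**
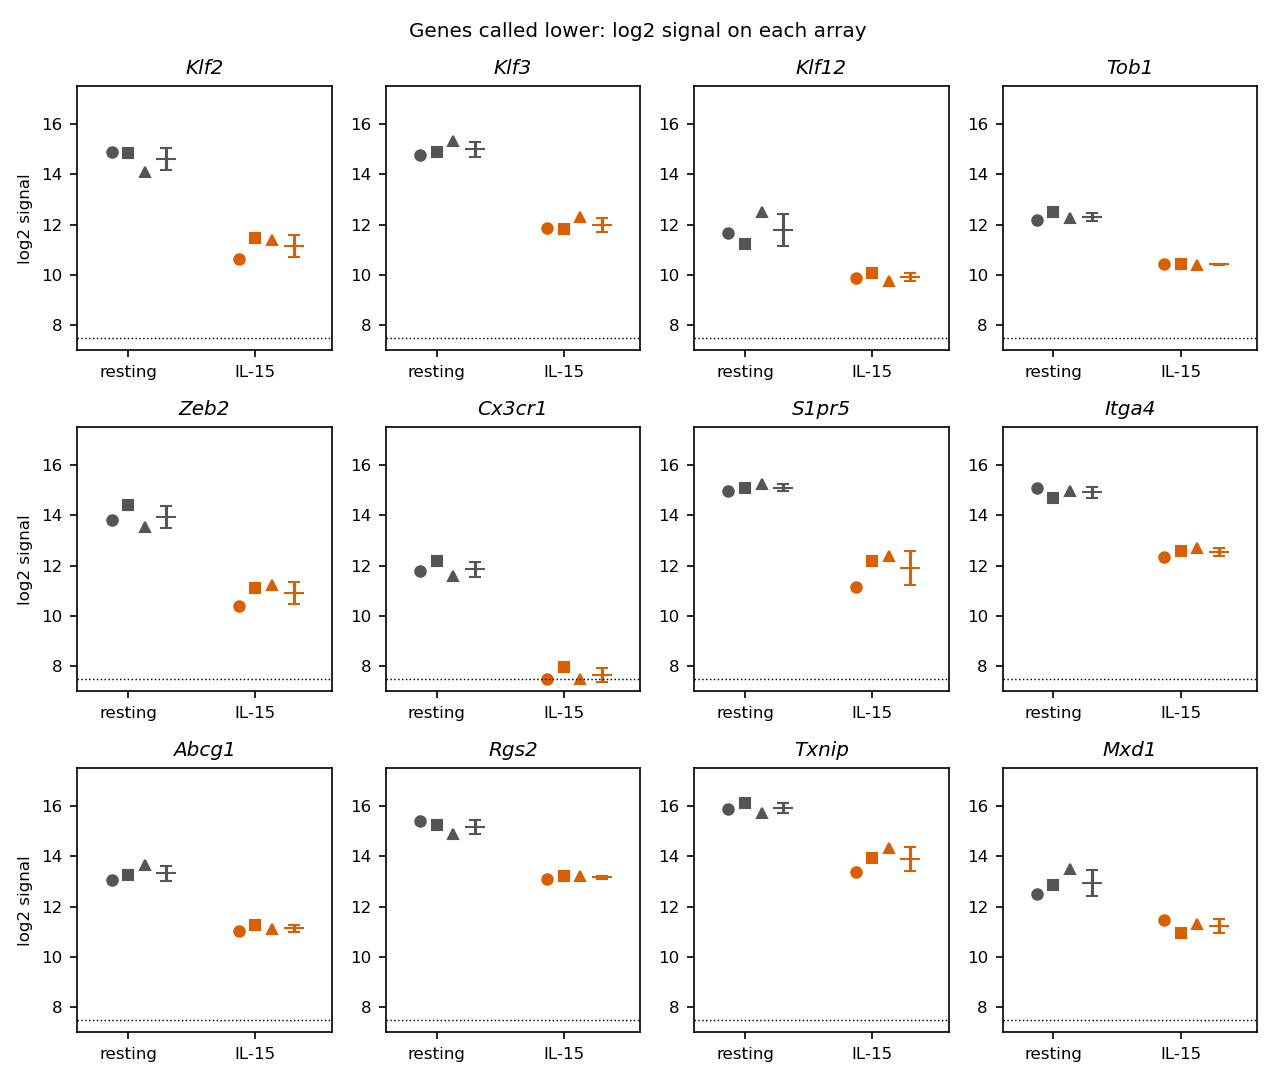
Log2 signal on each array of 12 genes called lower, for resting (grey) and IL-15 (orange) NK cells. Symbols are arrays 1 (circle), 2 (square) and 3 (triangle), bars to the right show mean ± SD (n = 3), and the dotted line is the floor; in each panel every resting point lies above every IL-15 point.

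Several receptors that direct NK cells through blood and tissue fell. S1pr5, the sphingosine phosphate receptor by which NK cells leave bone marrow and lymph nodes, had log2 signals of 14.95, 15.09 and 15.22 in resting NK cells and 11.15, 12.16 and 12.39 in IL-15 NK cells. It fell 9.08-fold (log2 difference -3.18 ± 0.29 SE, limma adjusted p = 6e-05). Cx3cr1, the receptor for fractalkine on vessel walls, was 11.79, 12.17 and 11.59 in resting NK cells and 7.97 on 1 array and at the floor on the other two in IL-15 NK cells, and it fell at least 18.4-fold (log2 difference -4.20 or lower, ± 0.29 SE, limma adjusted p = 1.5e-05). Cmklr1, the chemerin receptor, had log2 signals of 11.13, 12.02 and 11.56 in resting NK cells and 8.95, 9.78 and 9.43 in IL-15 NK cells, and it fell 4.55-fold (log2 difference -2.19 ± 0.32 SE, limma adjusted p = 0.00087). All of S1pr5, Cx3cr1 and Cmklr1 were brighter in resting NK cells than in splenocytes. Cxcr4, the bone marrow homing receptor, was brighter in splenocytes; it fell 5.46-fold (limma adjusted p = 0.0003), with a log2 difference of -2.17 from resting array 3 alone. Of 25 such receptors on the array only 14 passed the filter on dim genes. Among those 9 fell and 1 rose, and the lower count was 4 without resting array 1 or IL-15 array 1 and 5 without IL-15 array 2. The higher count of these receptors was 2 without resting array 3 and 0 without IL-15 array 1 or IL-15 array 2.

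Integrins moved in both directions. Itga4, the alpha 4 chain that binds VCAM-1, had log2 signals of 15.07, 14.67 and 14.96 in resting NK cells and 12.35, 12.56 and 12.69 in IL-15 NK cells, and it fell 5.17-fold (log2 difference -2.37 ± 0.18 SE, limma adjusted p = 2.7e-05); its 4 other tested probe sets made the same call. Itgam (CD11b), a marker of mature NK cells, was 10.37, 10.17 and 10.72 in resting NK cells and 8.73 and 8.93 on a pair of arrays and at the floor on the other in IL-15 NK cells, and it fell at least 4.1-fold (log2 difference -2.04 or lower, ± 0.39 SE, limma adjusted p = 0.004). Itga1 (CD49a), a collagen receptor that marks tissue-resident NK cells, rose from 8.16, 8.43 and 8.45 in resting NK cells to 9.77, 11.19 and 9.73 in IL-15 NK cells. For Itga1 the log2 difference was 1.88 ± 0.40 SE (limma adjusted p = 0.0067), and the single highest value came from IL-15 array 2. Among 31 tested adhesion genes 15 fell and 2 rose, with 9 of the fallen ones not brighter in splenocytes. The lower count was 9 without resting array 3, IL-15 array 2 or IL-15 array 3 and 7 without IL-15 array 1, and the higher count was 1 without resting array 3, IL-15 array 1 or IL-15 array 3.

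Single genes of G protein-coupled receptor and cyclic AMP signalling moved in both directions. P2ry14, a receptor for UDP-glucose, had log2 signals of 10.80, 10.65 and 10.50 in resting NK cells and 13.43, 13.36 and 13.73 in IL-15 NK cells. The spread within each group was small against the difference, and P2ry14 rose 7.24-fold (log2 difference 2.86 ± 0.19 SE, limma adjusted p = 1.5e-05). Adk, adenosine kinase, which clears the immunosuppressive nucleoside adenosine inside the cell, had log2 signals of 10.12, 9.16 and 10.15 in resting NK cells and 12.60, 12.31 and 12.43 in IL-15 NK cells, and it rose 6.22-fold (log2 difference 2.64 ± 0.29 SE, limma adjusted p = 0.00019). Crem, a cyclic AMP responsive repressor, rose 3.9-fold (log2 difference 1.97 ± 0.30 SE, limma adjusted p = 0.0011). Pde2a, a phosphodiesterase that degrades cyclic AMP, had log2 signals of 16.45, 16.77 and 16.31 in resting NK cells and 15.05, 15.22 and 15.58 in IL-15 NK cells, and it fell 2.35-fold (log2 difference -1.23 ± 0.20 SE, limma adjusted p = 0.0018). Rgs2, a terminator of G protein signalling, was 15.40, 15.23 and 14.86 in resting NK cells and 13.09, 13.20 and 13.19 in IL-15 NK cells, and it fell 4.02-fold (log2 difference -2.01 ± 0.18 SE, limma adjusted p = 6.4e-05). Of 26 tested genes of cyclic nucleotide and adenosine signalling 4 rose and 4 fell, shares near the background.

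Inhibitory receptors, which raise the threshold for activation, were among the genes that fell. Klrg1, an inhibitory lectin receptor of mature NK cells, had log2 signals of 14.18, 14.70 and 14.61 in resting NK cells and 12.02, 11.84 and 12.55 in IL-15 NK cells. It fell 5.13-fold (log2 difference -2.36 ± 0.23 SE, limma adjusted p = 8.4e-05). Vsir (VISTA), a checkpoint receptor, fell 2.3-fold (log2 difference -1.20 ± 0.19 SE, limma adjusted p = 0.0014). Of 16 tested inhibitory receptors 6 fell, 3 of them not brighter in splenocytes, and 0 rose by limma (0 at an unadjusted p under 0.05). The lower count was 3 without IL-15 array 3. Fcgr2b, the inhibitory Fc receptor, was 12.85, 12.95 and 13.38 in resting NK cells and 8.98 and 9.26 on a pair of arrays and at the floor on the other in IL-15 NK cells, and it fell at least 22.4-fold (log2 difference -4.48 or lower, ± 0.42 SE, limma adjusted p = 7.1e-05), and its 3 other tested probe sets made the same call. Fcgr2b was brighter in splenocytes, and its log2 difference from resting array 3 alone was -4.80. Of 25 tested activating receptors, adaptors and proximal kinases 2 rose and 5 fell, and the higher count was 1 without resting array 3, IL-15 array 1, IL-15 array 2 or IL-15 array 3. The natural cytotoxicity receptor gene Ncr1 had a log2 difference of -0.39 ± 0.22 SE that did not pass (limma adjusted p = 0.23).

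Receptors for other signals moved in both directions. Tnfrsf9 (4-1BB), a costimulatory receptor induced on activated lymphocytes, had log2 signals of 12.39, 11.94 and 12.27 in resting NK cells and 14.58, 13.77 and 14.93 in IL-15 NK cells, and it rose 4.69-fold (log2 difference 2.23 ± 0.28 SE, limma adjusted p = 0.00038). Tnfrsf21 (DR6), a death domain receptor, rose 4.25-fold (limma adjusted p = 0.00052). Il12rb1, a shared chain of the receptors for IL-12 and IL-23, had log2 signals of 10.37, 10.75 and 10.05 in resting NK cells and 12.07, 12.20 and 12.64 in IL-15 NK cells. It rose 3.77-fold (log2 difference 1.92 ± 0.26 SE, limma adjusted p = 0.00053), with no overlap between groups. Il7r, the receptor for IL-7 whose promoter is shown above, went down from 14.72, 14.33 and 13.99 in resting NK cells to 11.54, 11.13 and 11.56 in IL-15 NK cells; it fell 7.64-fold (log2 difference -2.93 ± 0.22 SE, limma adjusted p = 2.7e-05). Il7r was brighter in splenocytes, and its log2 difference from resting array 3 alone was -2.57. Of 24 tested receptors for other cytokines 2 rose and 5 fell, and the higher count was 1 without IL-15 array 3.

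Single granzymes, the proteases that NK cells inject into their targets, rose or fell, though the granule genes as a list lay near the background. Gzmb, granzyme B, had log2 signals of 15.27, 15.29 and 15.43 in resting NK cells and 16.86, 16.31 and 16.81 in IL-15 NK cells, and it rose 2.52-fold (log2 difference 1.33 ± 0.20 SE, limma adjusted p = 0.00098). Gzmc, granzyme C, was 8.33 and 9.13 on a pair of arrays and at the floor on the other in resting NK cells and 12.04, 11.59 and 12.37 in IL-15 NK cells, and it rose at least 12.9-fold (log2 difference at least 3.69 ± 0.40 SE, limma adjusted p = 0.00019). Gzmm, granzyme M, went down from 9.90, 9.98 and 9.63 in resting NK cells to 8.39, 8.51 and 8.58 in IL-15 NK cells, and it fell 2.53-fold (log2 difference -1.34 ± 0.27 SE, limma adjusted p = 0.0048). Gzma, granzyme A, had a log2 difference of -0.52 (95% interval -0.98 to -0.05), and Prf1, perforin, which forms the pore for granzymes, of -0.36 (-0.81 to 0.10); neither passed (limma adjusted p = 0.098 and 0.23). Of 21 tested granule genes 2 rose and 3 fell; the lower count was 1 without resting array 3, IL-15 array 1 or IL-15 array 2.

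Among secreted factors some fell and others rose. Ifng, interferon gamma, had log2 signals of 15.38, 15.17 and 14.37 in resting NK cells and 14.02, 13.86 and 13.73 in IL-15 NK cells; it fell 2.15-fold (log2 difference -1.10 ± 0.25 SE, limma adjusted p = 0.0091). The difference from resting array 3 alone, the lowest of its group, was -0.50. Ccl5, a chemokine stored in resting NK cells, was 16.50, 17.13 and 16.46 in resting NK cells and 14.41, 15.17 and 15.09 in IL-15 NK cells, and it fell 3.51-fold (log2 difference -1.81 ± 0.26 SE, limma adjusted p = 0.00077). Il18, a partner cytokine of IL-12 for NK cells, was 9.25, 9.50 and 9.91 in resting NK cells and 7.76 on 1 array and at the floor on the other two in IL-15 NK cells; it fell at least 3.92-fold (log2 difference -1.97 or lower, ± 0.28 SE, limma adjusted p = 0.00083), with a log2 difference of -2.33 from resting array 3 alone; it was brighter in splenocytes. Mif, macrophage migration inhibitory factor, had log2 signals of 11.42, 12.25 and 11.35 in resting NK cells and 14.83, 14.25 and 14.51 in IL-15 NK cells, and it rose 7.25-fold (log2 difference 2.86 ± 0.26 SE, limma adjusted p = 6.4e-05). Of 24 tested secreted cytokines and chemokines 6 rose and 8 fell, 3 of the fallen ones not brighter in splenocytes. The higher count was 3 without resting array 3 or IL-15 array 2.

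**Figure D4:**
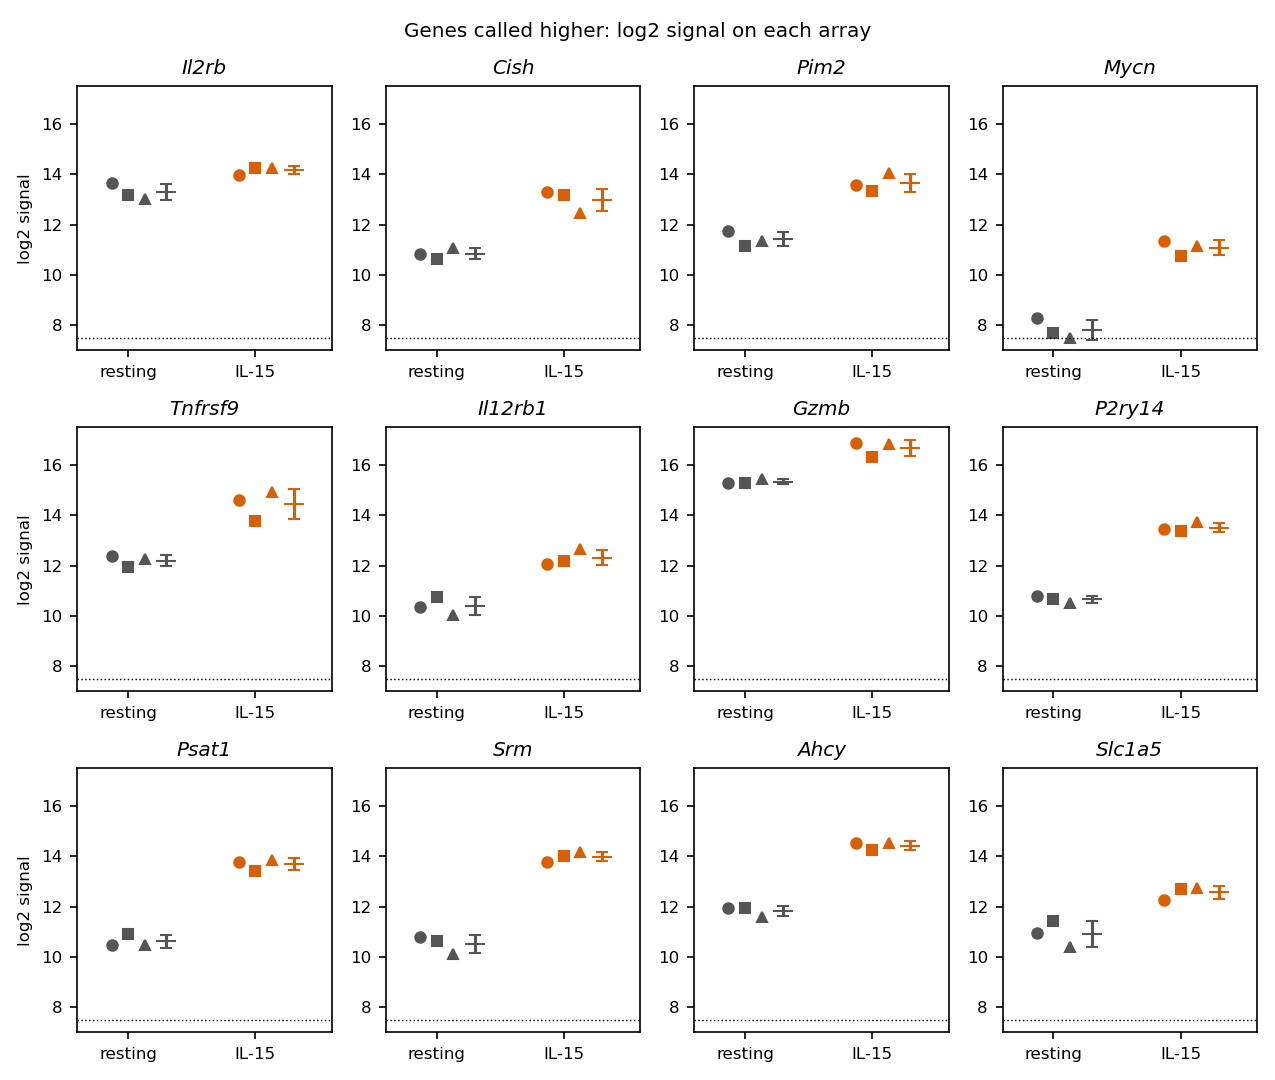
Log2 signal on each array of 12 genes called higher, for resting (grey) and IL-15 (orange) NK cells, with symbols for arrays 1 (circle), 2 (square) and 3 (triangle), mean ± SD (n = 3) at the right and the floor as a dotted line. In each panel every IL-15 point lies above every resting point.

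Several metabolic lists had shares of higher calls above the background. Serine and folate metabolism, which supplies one-carbon units for nucleotides and methylation, had 13 of 20 tested genes higher and 0 lower by limma (1 lower at an unadjusted p under 0.05). Psat1, an enzyme of serine synthesis, had log2 signals of 10.49, 10.92 and 10.46 in resting NK cells and 13.79, 13.42 and 13.84 in IL-15 NK cells; it rose 8.31-fold (log2 difference 3.06 ± 0.21 SE, limma adjusted p = 1.5e-05). Ahcy, which removes the inhibitory product of methylation reactions, was 11.93, 11.93 and 11.59 in resting NK cells and 14.52, 14.23 and 14.51 in IL-15 NK cells, and it rose 6.07-fold (log2 difference 2.60 ± 0.18 SE, limma adjusted p = 1.5e-05). Mthfd2, a mitochondrial folate enzyme, rose 6.5-fold (log2 difference 2.70 ± 0.30 SE, limma adjusted p = 0.00022), and Shmt1, which moves a carbon unit from serine to folate, rose 5.3-fold (log2 difference 2.41 ± 0.28 SE, limma adjusted p = 0.00026). The median log2 difference of the list was 1.33.

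Purine and pyrimidine synthesis followed, with 19 of 27 tested genes higher and 2 lower; the lower count was 1 without IL-15 array 1 or IL-15 array 3. Ctps, which makes CTP, had log2 signals of 11.26, 10.87 and 11.01 in resting NK cells and 13.96, 13.14 and 13.66 in IL-15 NK cells, and it rose 5.82-fold (log2 difference 2.54 ± 0.23 SE, limma adjusted p = 6.8e-05). Atic, which completes the purine ring, was 10.57, 10.90 and 11.42 in resting NK cells and 13.18, 12.94 and 13.04 in IL-15 NK cells, and it rose 4.26-fold (log2 difference 2.09 ± 0.24 SE, limma adjusted p = 0.00022). Nme1, a nucleoside diphosphate kinase, had log2 signals of 12.19, 12.89 and 11.94 in resting NK cells and 14.29, 14.30 and 14.59 in IL-15 NK cells, and it rose 4.15-fold (log2 difference 2.05 ± 0.24 SE, limma adjusted p = 0.00028). Gart, a purine synthesis enzyme with several activities, rose 4.11-fold (limma adjusted p = 8.7e-05), and its 3 other tested probe sets agreed in call. The promoters of Nme1 at chr11:93968223-93968522 (minus strand) and Atic at chr1:71556906-71557205 (plus strand) are shown because each holds 1 match to the E-box CACGTG, the palindrome bound by MYC and MAX and by other factors of their class, at 18 and 7 bases before the start (capitals). Of all promoters 7.15% hold it, of promoters of tested genes 9.74%, of genes that rose 13.5% and of genes that fell 8.33%.
Nme1: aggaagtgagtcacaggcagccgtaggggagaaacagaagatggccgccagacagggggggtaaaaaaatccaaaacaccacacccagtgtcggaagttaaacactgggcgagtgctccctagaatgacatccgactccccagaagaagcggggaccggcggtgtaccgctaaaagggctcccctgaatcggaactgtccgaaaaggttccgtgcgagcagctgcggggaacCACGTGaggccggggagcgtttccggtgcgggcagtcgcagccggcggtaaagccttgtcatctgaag
Atic: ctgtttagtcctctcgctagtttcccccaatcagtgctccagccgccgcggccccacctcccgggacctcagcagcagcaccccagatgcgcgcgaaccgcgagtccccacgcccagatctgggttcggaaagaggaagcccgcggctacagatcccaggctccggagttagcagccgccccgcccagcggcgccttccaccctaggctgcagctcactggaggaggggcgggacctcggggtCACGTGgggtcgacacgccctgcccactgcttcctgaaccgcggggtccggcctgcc

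Polyamines, small cations that growing cells need for translation, are made in steps that include Srm, spermidine synthase. Srm had log2 signals of 10.79, 10.62 and 10.10 in resting NK cells and 13.78, 14.01 and 14.16 in IL-15 NK cells, and it rose 11.2-fold (log2 difference 3.48 ± 0.22 SE, limma adjusted p = 1.4e-05). Among 13 tested polyamine genes 5 rose and 2 fell, and the higher count was 3 without IL-15 array 1 or IL-15 array 3. The lower count of the polyamine genes was 0 without resting array 1, resting array 3 or IL-15 array 1 and 1 without IL-15 array 2 or IL-15 array 3. Genes of amino acid uptake rose in part. Slc7a5, the light chain of the main transporter for leucine and other large amino acids, was 9.08 and 7.73 on a pair of arrays and at the floor on the other in resting NK cells and 13.06, 12.07 and 12.97 in IL-15 NK cells, and it rose at least 24.3-fold (log2 difference at least 4.60 ± 0.43 SE, limma adjusted p = 7.5e-05). Slc1a5, the glutamine transporter ASCT2, had log2 signals of 10.93, 11.42 and 10.39 in resting NK cells and 12.24, 12.68 and 12.74 in IL-15 NK cells, and it rose 3.12-fold (log2 difference 1.64 ± 0.28 SE, limma adjusted p = 0.0019). Of 21 tested amino acid transporters 9 rose and 3 fell, and the lower count was 1 without resting array 3, IL-15 array 1 or IL-15 array 3. Asns, asparagine synthetase and a known target of the stress factor ATF4, was 7.70 on 1 array and at the floor on the other two in resting NK cells and 10.72, 9.11 and 10.58 in IL-15 NK cells, and it rose at least 5.95-fold (log2 difference at least 2.57 ± 0.41 SE, limma adjusted p = 0.0015), in a list of 20 ATF4-linked genes of which 3 rose, near the background share.

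Genes of glucose use rose in part. Of 28 tested genes of glucose uptake, glycolysis and lactate handling 12 rose and 0 fell by limma (2 lower at an unadjusted p under 0.05); the lower count was 1 without resting array 2. Aldoc, an aldolase usually studied in brain, had log2 signals of 7.63, 8.04 and 7.85 in resting NK cells and 11.97, 10.96 and 10.73 in IL-15 NK cells, and it rose 10.4-fold (log2 difference 3.38 ± 0.35 SE, limma adjusted p = 0.00015). Slc16a1 (MCT1), a lactate carrier, was 10.66, 10.90 and 10.49 in resting NK cells and 12.93, 12.69 and 13.18 in IL-15 NK cells, and it rose 4.76-fold (log2 difference 2.25 ± 0.21 SE, limma adjusted p = 7.6e-05). In the tricarboxylic acid cycle Idh3a, the catalytic subunit of an isocitrate dehydrogenase, rose 2.66-fold (log2 difference 1.41 ± 0.18 SE, limma adjusted p = 0.00043). Of 34 tested genes of the cycle and of mitochondrial carriers 11 rose (7 without IL-15 array 3) and 0 fell by limma (2 lower at an unadjusted p under 0.05); the lower count was 1 without resting array 3 or IL-15 array 3. Of 28 tested thioredoxin, peroxiredoxin and glutathione enzymes, which buffer oxidants, 10 rose and 1 fell, and the lower count was 2 without resting array 2 and 0 without resting array 3, IL-15 array 1 or IL-15 array 3. Tfrc, the transferrin receptor for iron uptake, had log2 signals of 11.50, 10.90 and 10.98 in resting NK cells and 14.78, 14.15 and 14.49 in IL-15 NK cells, and it rose 10.2-fold (log2 difference 3.35 ± 0.23 SE, limma adjusted p = 1.5e-05).

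The cholesterol exporter genes Abca1 and Abcg1 fell. LXR is a nuclear receptor that senses oxidised cholesterol and switches on genes that remove it. Abca1, a cholesterol exporter and LXR target, had log2 signals of 13.36, 12.91 and 13.84 in resting NK cells and 9.27, 8.56 and 8.88 in IL-15 NK cells. It fell 22.1-fold (log2 difference -4.47 ± 0.29 SE, limma adjusted p = 1.5e-05); it was brighter in splenocytes, and its log2 difference from resting array 3 alone was -4.94. Abcg1, another exporter, was brighter in resting NK cells than in splenocytes and fell from 13.04, 13.24 and 13.65 in resting NK cells to 11.03, 11.28 and 11.09 in IL-15 NK cells. Its log2 difference was -2.18 ± 0.21 SE (limma adjusted p = 8e-05). Mylip, an LXR target that degrades the LDL receptor, fell 2.43-fold (log2 difference -1.28 ± 0.23 SE, limma adjusted p = 0.0026). Scarb1, a receptor for HDL, rose from 7.76, 8.32 and 8.47 in resting NK cells to 10.99, 9.92 and 9.85 in IL-15 NK cells, a difference of 2.07 ± 0.37 SE (limma adjusted p = 0.0027). Of 18 tested genes of this list 6 fell, 3 of them not brighter in splenocytes, and 1 rose. The higher count was 2 without resting array 1. The sterol synthesis list had 19 of 23 higher.

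Genes of fatty acid use moved in both directions. Fabp5, a fatty acid binding protein, had log2 signals of 9.25, 10.84 and 8.77 in resting NK cells and 13.26, 12.73 and 12.37 in IL-15 NK cells, and it rose 8.98-fold (log2 difference 3.17 ± 0.47 SE, limma adjusted p = 0.00097), and Fads1, a desaturase, was 7.83, 8.40 and 7.82 in resting NK cells and 11.57, 10.49 and 10.36 in IL-15 NK cells, and it rose 6.91-fold (log2 difference 2.79 ± 0.37 SE, limma adjusted p = 0.00053). Lpin1, a phosphatidate phosphatase and coactivator of fat oxidation, fell 3.22-fold (log2 difference -1.69 ± 0.19 SE, limma adjusted p = 0.00022). Elovl7, an elongase, fell 4.49-fold (limma adjusted p = 0.00025), and Cpt1a, which admits fatty acids to mitochondria for oxidation, fell 2.43-fold (limma adjusted p = 0.008). Of 31 tested genes of the list 9 rose and 3 fell, and the higher count was 5 without resting array 1 or IL-15 array 3 and 4 without IL-15 array 1.

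**Figure D5:**
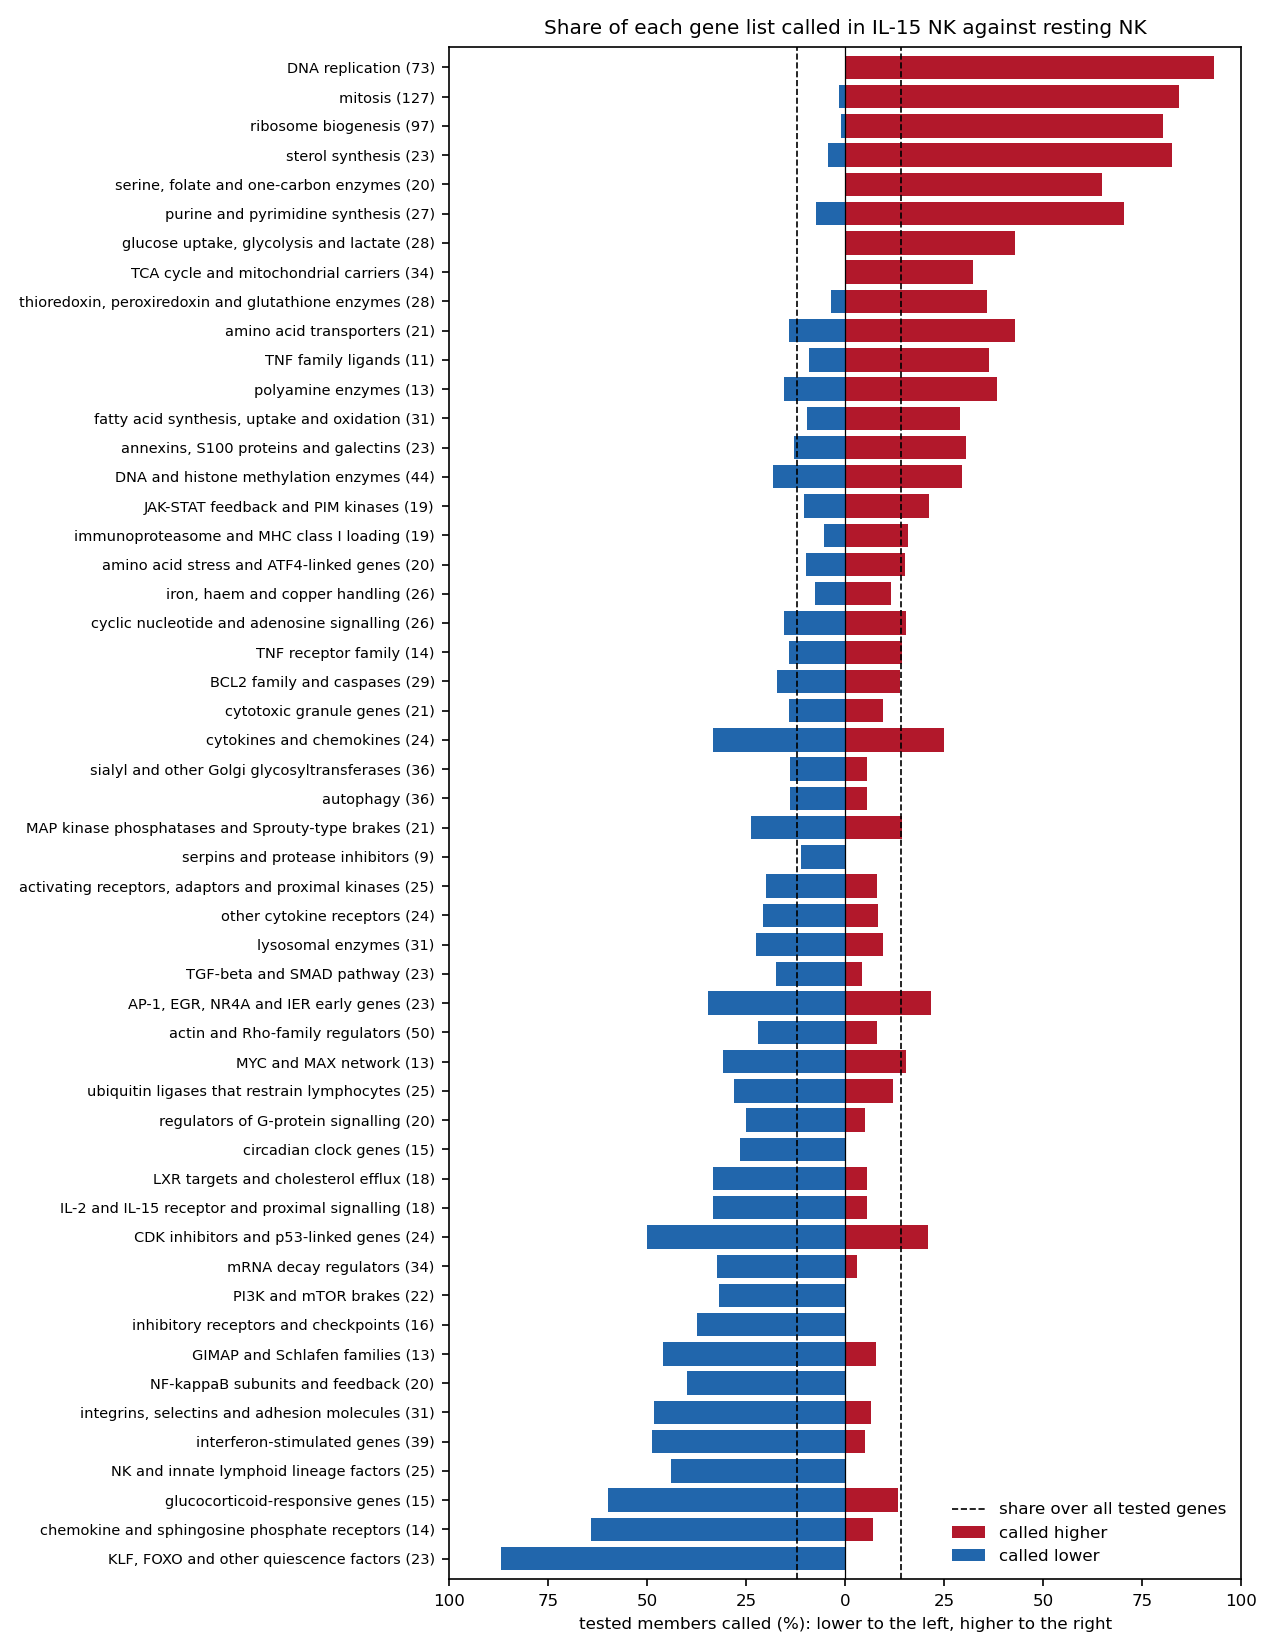
Share of tested members of each of 52 gene lists called higher (red, to the right) or lower (blue, to the left) in IL-15 NK cells, with the number tested in brackets. Dashed lines mark the shares over all tested genes (14.2% higher, 12.1% lower). The DNA replication, mitosis, ribosome biogenesis and sterol synthesis lists extend furthest to the right (80.4% to 93.2%). The purine (70.4%) and serine (65%) lists come next, and the quiescence list extends far to the left.

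Chromatin and RNA regulators moved in both directions. Uhrf1, which brings the maintenance DNA methyltransferase to replicating DNA, had log2 signals of 9.82, 9.22 and 9.24 in resting NK cells and 13.48, 13.47 and 13.25 in IL-15 NK cells, and it rose 15.7-fold (log2 difference 3.97 ± 0.23 SE, limma adjusted p = 9.8e-06). Smyd2, a lysine methyltransferase, was 9.45, 9.67 and 9.22 in resting NK cells and 11.79, 11.93 and 11.42 in IL-15 NK cells, and it rose 4.82-fold (log2 difference 2.27 ± 0.25 SE, limma adjusted p = 0.00021), and Prmt5, an arginine methyltransferase of histones and splicing proteins, rose 3.19-fold (limma adjusted p = 0.00057). Kdm7a, a histone demethylase, fell 3.06-fold (log2 difference -1.61 ± 0.19 SE, limma adjusted p = 0.0003), and Kmt5b, which methylates histone H4, fell 2.69-fold (log2 difference -1.43 ± 0.20 SE, limma adjusted p = 0.00069); Kdm7a was brighter in splenocytes, with a log2 difference of -1.66 from resting array 3 alone. Of 44 tested methylation enzymes 13 rose and 8 fell. Zfp36l2, which marks AU-rich mRNAs for decay and supports quiescence, fell from 15.92, 16.22 and 15.69 in resting NK cells to 14.80, 14.32 and 14.81 in IL-15 NK cells, a difference of -1.30 ± 0.21 SE (limma adjusted p = 0.0015). Of 34 tested regulators of mRNA decay 11 fell (7 without resting array 1 or IL-15 array 3) and 1 rose (0 without IL-15 array 1).

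Ubiquitin ligases that restrain lymphocytes had 7 of 25 lower and 3 higher, and the lower count was 4 without resting array 1 or IL-15 array 3. Dtx1, a ubiquitin ligase linked to lymphocyte unresponsiveness, had log2 signals of 13.11, 12.63 and 11.05 in resting NK cells and 9.90, 8.64 and 8.55 in IL-15 NK cells, and it fell 9.4-fold (log2 difference -3.23 ± 0.52 SE, limma adjusted p = 0.0016). It was brighter in splenocytes, and its log2 difference from resting array 3 alone was -2.02. Cbl, a ligase that ends receptor signalling, fell 2.1-fold (log2 difference -1.07 ± 0.16 SE, limma adjusted p = 0.0011), and Fbxo32, known from muscle wasting and induced by FOXO factors, fell 3.86-fold (log2 difference -1.95 ± 0.36 SE, limma adjusted p = 0.0033). Among brakes of the cell cycle, Cdkn1a (p21), an inhibitor of cyclin-dependent kinases, rose from 9.97, 9.59 and 9.31 in resting NK cells to 12.31, 10.98 and 12.39 in IL-15 NK cells; the difference was 2.27 ± 0.38 SE (limma adjusted p = 0.0018). Aen, a nuclease induced by p53, was 10.28, 10.77 and 10.63 in resting NK cells and 13.12, 12.76 and 12.94 in IL-15 NK cells, and it rose 5.22-fold (log2 difference 2.38 ± 0.21 SE, limma adjusted p = 5.8e-05). Trp53inp1, a p53 target that slows the cell cycle and promotes autophagy, was 15.44, 15.66 and 15.75 in resting NK cells and 14.14, 14.15 and 14.20 in IL-15 NK cells, and it fell 2.75-fold (log2 difference -1.46 ± 0.16 SE, limma adjusted p = 0.00021), while Gabarapl1, a coat protein of autophagosomes, rose 4.45-fold (log2 difference 2.15 ± 0.25 SE, limma adjusted p = 0.00026). Of 24 tested CDK inhibitors and p53-linked genes 12 fell, 3 of them not brighter in splenocytes, and 5 rose. The lower count was 7 without IL-15 array 1, and the higher count was 3 without resting array 1 or IL-15 array 1.

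Interferon-stimulated genes, which mediate antiviral defence, fell in 19 of 39 tested cases. Rsad2 (viperin), an enzyme that makes a nucleotide that stops viral replication, had log2 signals of 11.31, 11.76 and 11.65 in resting NK cells and 7.70 and 8.44 on a pair of arrays and at the floor on the other in IL-15 NK cells. It fell at least 13-fold (log2 difference -3.70 or lower, ± 0.32 SE, limma adjusted p = 4.9e-05). Ifit3, which helps to recognise foreign RNA, was 10.01, 9.86 and 10.27 in resting NK cells and 8.13 on 1 array and at the floor on the other two in IL-15 NK cells, and it fell at least 5.06-fold (log2 difference -2.34 or lower, ± 0.30 SE, limma adjusted p = 0.00041). Ifih1 (MDA5), a sensor of double-stranded RNA, fell 3.93-fold (log2 difference -1.98 ± 0.26 SE, limma adjusted p = 0.00046). Rsad2 and Ifit3 were brighter in splenocytes, and from resting array 3 alone their log2 differences were -3.78 and -2.56; Ifih1 was not brighter in splenocytes. Ifitm1, a membrane protein of the same class that blocks viral entry, moved the other way at 7.60 and 8.28 on a pair of arrays and at the floor on the other in resting NK cells and 12.21, 11.61 and 10.99 in IL-15 NK cells, and it rose at least 14.1-fold (log2 difference at least 3.81 ± 0.37 SE, limma adjusted p = 8.3e-05). Only 5 of the 19 were as bright or brighter in resting NK cells than in splenocytes, and 2 members of the list rose.

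Interferon acts through the ISRE, searched on both strands as an ISRE-like motif of paired GAAA letters 2 bases apart, and the promoters of Rsad2 at chr12:26456403-26456702 (minus strand) and Ifit3 at chr19:34583279-34583578 (plus strand) are shown because they hold 1 and 2 matches (capitals; on the opposite strand to the printed one). The match of Rsad2 begins 120 bases before the start, and those of Ifit3 begin 156 and 122 bases before. These letters occur in 3.44% of all promoters, 3.08% of those of tested genes, 4.73% of those of genes that fell and 2.92% of those of genes that rose. Among other motifs, searched in the same way, AP-1 and the FOXO site had a higher share among genes that fell than among tested genes. AP-1 (TGANTCA) was in 7.2% of promoters of genes that fell, 5.22% of tested ones and 7.81% of all promoters. For the FOXO site (GTAAACA) these shares were 4%, 2.82% and 3.65%. The cyclic AMP response element (TGACGTCA) was in 3.97% of promoters of genes that rose, 3.09% of tested ones and 1.79% of all promoters. No test was made of these shares.
Rsad2: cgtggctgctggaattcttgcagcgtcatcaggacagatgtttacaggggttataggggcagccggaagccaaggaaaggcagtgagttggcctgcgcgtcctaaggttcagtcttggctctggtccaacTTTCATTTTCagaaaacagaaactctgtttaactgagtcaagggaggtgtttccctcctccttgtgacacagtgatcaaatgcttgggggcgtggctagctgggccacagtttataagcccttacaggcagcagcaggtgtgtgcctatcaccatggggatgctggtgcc
Ifit3: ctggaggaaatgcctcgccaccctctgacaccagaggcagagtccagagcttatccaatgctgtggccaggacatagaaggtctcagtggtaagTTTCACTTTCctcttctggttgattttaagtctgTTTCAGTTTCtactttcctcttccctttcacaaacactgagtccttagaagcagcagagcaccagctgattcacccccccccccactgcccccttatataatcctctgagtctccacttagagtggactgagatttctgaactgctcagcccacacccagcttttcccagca

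Among the differences of greatest size outside these lists, Fignl1, an ATPase of DNA recombination repair, had log2 signals of 9.10, 9.20 and 9.32 in resting NK cells and 14.34, 13.68 and 13.87 in IL-15 NK cells, and it rose 27-fold (log2 difference 4.76 ± 0.23 SE, limma adjusted p = 5.1e-06). Hemgn, a nuclear protein known from blood cell precursors, was 9.13, 9.22 and 8.91 in resting NK cells and 13.71, 12.35 and 13.36 in IL-15 NK cells, and it rose 16.6-fold (log2 difference 4.05 ± 0.33 SE, limma adjusted p = 3.9e-05). Ppp1r3b, which targets a phosphatase to glycogen, rose 10.1-fold (log2 difference 3.34 ± 0.39 SE, limma adjusted p = 0.00025), and Zmynd19, a zinc finger protein, rose 10.9-fold (log2 difference 3.45 ± 0.29 SE, limma adjusted p = 4.4e-05). In the lower direction H1f2, a linker histone, had log2 signals of 15.15, 14.45 and 13.61 in resting NK cells and 10.79, 10.45 and 10.41 in IL-15 NK cells, and it fell 14.5-fold (log2 difference -3.85 ± 0.33 SE, limma adjusted p = 4.9e-05). H3f3b, which encodes the replication-independent histone H3.3, was 13.90, 13.74 and 14.61 in resting NK cells and 11.22, 10.75 and 10.94 in IL-15 NK cells, and it fell 8.68-fold (log2 difference -3.12 ± 0.25 SE, limma adjusted p = 3.3e-05), and the lysosome positioning factor gene Borcs7 fell 10.4-fold (log2 difference -3.38 ± 0.40 SE, limma adjusted p = 0.00028). Tspan32, a tetraspanin of blood cells, fell 8.45-fold (log2 difference -3.08 ± 0.24 SE, limma adjusted p = 3.2e-05); it was brighter in splenocytes, and its log2 difference from resting array 3 alone was -3.25. Lmna (lamin A), scarce in resting lymphocytes, rose 5.47-fold (log2 difference 2.45 ± 0.31 SE, limma adjusted p = 0.00043), and Capg, which caps actin filaments, rose 5.39-fold (log2 difference 2.43 ± 0.23 SE, limma adjusted p = 8e-05).

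Genes were also grouped by the letters of their symbols, over families with at least 15 tested members. Nucleoporins (Nup), the parts of the nuclear pore, had 9 of 18 higher and 0 lower by limma (0 lower at an unadjusted p under 0.05), led by Nup43, which rose 6.06-fold (log2 difference 2.60 ± 0.38 SE, limma adjusted p = 0.00093). The proteins of the large mitochondrial ribosome subunit (Mrpl) had 16 of 47 higher and 0 lower (0 at an unadjusted p under 0.05), led by Mrpl12, which rose 3.25-fold (log2 difference 1.70 ± 0.30 SE, limma adjusted p = 0.0025). Those of the small subunit (Mrps) had 14 of 29 higher (9 without IL-15 array 3). In the other direction the TRIM ubiquitin ligases had 11 of 39 lower and 1 higher, but the lower count was 4 without resting array 1 or IL-15 array 1 and 5 without resting array 3 or IL-15 array 3. Their higher count was 2 without resting array 2 and 0 without IL-15 array 1. Histone lysine demethylases (Kdm) had 4 of 18 lower and 0 higher by limma (0 at an unadjusted p under 0.05), led by Kdm7a. The solute carriers (Slc), had 31 of 206 higher and 21 lower, which lies near the background of 14.2% and 12.1%; their lower count was 10 without IL-15 array 1 and 13 without IL-15 array 3.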

How the data were processed

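The authors deposited one value table of linear signal intensity per probe set on Affymetrix MOE430_2 arrays, and the submitters' processing notes name GCOS 1.4 for them, with the algorithm and scaling not given in the sources used. No scanner files were used. Of 45101 probe sets 64 were controls, and 34945 carried 1 gene symbol, 932 several and 9160 none in GEO's platform annotation. Of the 1-gene probe sets 34741 matched RefSeq. Signals were raised to the median over arrays of the 40th percentile, taken to log2, and filtered as stated. Each gene was read from 1 probe set, the brightest on average across the 10 arrays. The 6 NK arrays were fitted with limma 3.58.1 in R 4.3.3 (intensity trend, Benjamini-Hochberg), with no covariate; the code was tested on simulated data. The labels do not say whether replicates came from separate animals or sorts, so p-values measure the spread between these arrays. Their number limits the precision.

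Members, 52 pathway lists and 8 marker lists were chosen with earlier results of these data known. Genes named are 8 fixed ones, the 15 largest non-overlapping calls each way outside growth and other cell marker lists, up to 4 largest calls each way per list, and up to 3 per symbol family; Cd79a and Ms4a1 are named as markers. Promoters are RefSeq's (GRCm38.p6), found for 9285 of 11433 tested genes; those shown were chosen after their values were seen.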

Additional observations from a re-analysis of the deposited data

How the results depend on the processing

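Calls numbered 3003, of which 1619 were higher and 1384 lower. Leaving out 1 array in turn gave 1906 to 3171 calls, 1107 to 1638 higher and 799 to 1533 lower. Without resting arrays 1 and 2, which held the B cell transcripts, 1106 genes were called, 604 higher and 502 lower. With genes brighter in splenocytes left out 1349 of 5924 were called, 470 higher and 879 lower. Tested singly, 5004 of 20980 probe sets were called, 2563 higher and 2441 lower; more features enter that count by construction. The other settings (2 floors, 2 filters, quantile and 75th percentile scaling, other choices of probe set, no trend, robust eBayes) gave 2423 to 3087 calls. Quantile scaling moved the median difference of all genes from -0.085 to 0.006. Among 357 named genes, 351 were called; 277 to 319 kept the call when 1 array was left out, 143 without resting arrays 1 and 2, 294 with no filter on dim genes and 301 with probe sets averaged. The sign turned for Prdx4 (-0.059 with the brightest probe set over NK arrays), Bcl2l2 (-0.12) and Phf6 (0.031, both with probe sets averaged) and Cd79b (0.0099 without resting arrays 1 and 2); the cause was not tested.

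Replicate numbers were shared between groups, and the deviations of same-numbered arrays correlated at 0.10, 0.28 and 0.07. Pairs with unlike numbers ranged from -0.22 to 0.15. The labels do not say whether the numbers pair the samples, and these few correlations cannot decide it. With the replicate number as a block 3421 genes were called, 1783 higher and 1638 lower, and 349 of the 351 named genes kept their call. Not every array correlated best with its own number, since resting array 3 did so with IL-15 array 1 (0.15).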
